A study of Danio rerio with 49 samples.

Results

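Spinal cord caudal to a transection was compared with the same stretch of uninjured cord 2 weeks post injury (2 wpi). The comparison took 10 of the 49 tissue libraries of the series, assigned to groups by their labels, with 5 libraries of caudal cord at 2 wpi and 5 of caudal cord from uninjured fish. All fish were zebrafish of the AB strain and wild type. The injured animals had received a complete transection of the spinal cord (spinal cord injury, SCI), and each sample held the 5 segments caudal to the injury site. The uninjured group held the corresponding segments of animals without a lesion. Each group came from 3 fish by the methods, as libraries of pooled samples, and whether each library came from fish of its own is not stated in the sources used here. The p-values therefore measure the spread between libraries, part of which may be technical. Caudal cord at 1 wpi and rostral cord (the 5 segments on the brain side of the lesion) from uninjured fish and at 2 wpi, with 5 libraries each, were used only for the comparisons by time and by region.

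Adult zebrafish regrow axons across a transected cord and recover swimming, which mammals do not. The cell types that take part are known from earlier work. Microglia and blood-derived macrophages clear cell debris and myelin, ependymal radial glia around the central canal divide and give rise to new cells, and surviving neurons rebuild their axons. Caudal to the lesion, axons that descend from the brain and rostral cord have lost their cell bodies and degenerate, whereas the local neurons stay alive.

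Expression was given as FPKM (fragments corrected for gene length and for library size, so that levels of different genes can be set side by side). The 5 uninjured libraries held from 12658925 to 26055184 fragments on genes and the 5 libraries at 2 wpi from 11474117 to 24972692. Mitochondrial genes took 14.1% to 27.1% of them in uninjured cord and 11.2% to 31.1% at 2 wpi. Uninjured replicate 5 stood apart from its group. When each library was left out in turn and placed between the means of both groups, over the genes called without it, the median gene of uninjured replicate 5 lay 0.499 of the way to 2 wpi, whereas the other uninjured libraries lay between -0.01 and 0.13. It was kept, and the results were also computed without it. Neuronal and myelin transcripts, which mark the labelled tissue, were abundant in all 10 libraries. The genes epcam (epithelium), lck (T cells) and pmp22a (Schwann cells) were at 0 in all 10, but other markers on the same lists were not. ZAP70 (T cells) had means of 1.88 FPKM in uninjured cord and 2.13 FPKM at 2 wpi. EGR2, listed for Schwann cells and sensory ganglia, had means of 1.61 and 2.21 FPKM. The sum of 7 skin epithelium genes was 452 FPKM in 2 wpi replicate 4 and between 2.28 and 10.002 in the other 9 libraries. That of 11 skeletal muscle genes was 772 FPKM in uninjured replicate 3 and between 10.7 and 107 in the others.

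**Figure D1:**
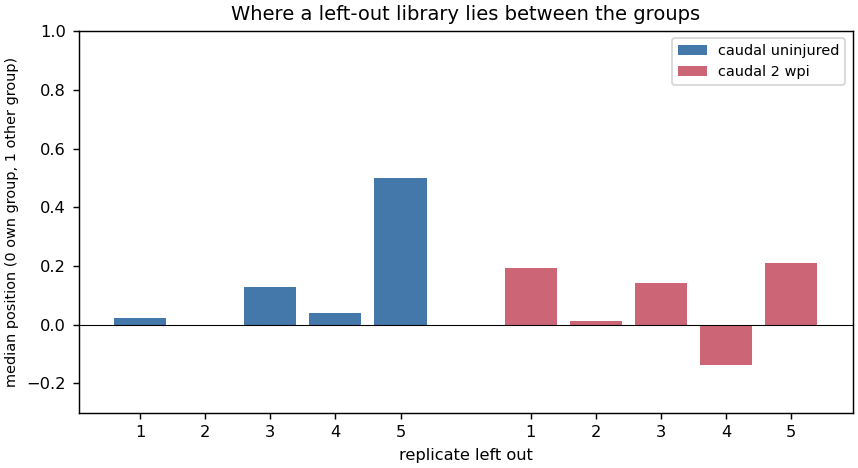
Median position of each caudal library between its own group (0) and the other group (1) on the log2 scale, over the genes called when that library was left out, against replicate number. Uninjured replicate 5 lay at 0.499, and the other 9 libraries lay between -0.14 and 0.21.

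The first question was which transcripts differed between injured and uninjured caudal cord. Values were compared on log2(FPKM + 0.1), a scale that understates the change of low genes, with limma (two-sided, Benjamini-Hochberg adjusted p below 0.05) for genes with a mean of at least 0.1 FPKM. Of 28392 genes tested, 1269 (4.47%) were higher at 2 wpi and 537 (1.89%) were lower. Without uninjured replicate 5, 1681 (5.88%) were higher and 899 (3.14%) lower of 28590. Of the 1269 higher genes 1192 were also called higher without that library, and of the 537 lower genes 466 were also called lower. With the replicate number as a block, 1154 (4.06%) were higher and 462 (1.63%) lower, and of the main calls 1001 higher and 340 lower genes were also called. For 2256 genes (7.95%) the ranges of the groups did not overlap. In a tissue sample, fewer cells of a type and less RNA per cell cannot be told apart.

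The split between higher and lower genes depended on the scaling of the libraries. The deposited FPKM follow size factors and not the library totals. When the values were rescaled to the total fragments on genes, the median of all genes moved from -0.01 to 0.19 on the log2 scale, and 1719 genes were higher and 96 lower. Of the 1269 higher genes 1198 were also called under this scaling, and of the 537 lower genes 92 were. Higher genes then made up 94.7% of the calls, in place of 70.27%. For each gene list that held falls, the count under this scaling is therefore given beside the main one. Single libraries moved the number of calls, 1806 in all, as well. It was 1200, 1101, 1045 and 1002 without uninjured replicate 1, 2, 3 or 4 and 992, 1144 and 919 without 2 wpi replicate 2, 3 or 4, and 2580 without uninjured replicate 5.

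Most of the largest increases were in genes of low level in uninjured cord. The uncharacterised gene si:dkey-7i4.24 (ENSDARG00000096906, chr15:714203-721558, build danRer11) was at 0.192, 0.0702, 0.354, 0.372 and 0.309 FPKM in uninjured replicates 1 to 5 and at 11, 37.7, 27.2, 22.2 and 12.7 FPKM at 2 wpi. The 10 largest increases and the 10 largest decreases were taken only from genes whose groups did not overlap. The log2 fold change of si:dkey-7i4.24 was 5.9 ± 0.38 (SE, n = 5 and 5, adjusted p = 1.16e-05). NPC2 (ENSDARG00000096979), which in mammals helps to carry cholesterol out of lysosomes, rose by 5.48 ± 0.60 on the log2 scale. Others of the 10 largest increases were si:ch211-153b23.5, nppb (a natriuretic peptide), grna.2, si:dkey-283b15.2, uts2a (a urotensin peptide), scn4ab (a voltage-gated sodium channel) and apoeb, with log2 fold changes between 4.37 and 5.13.

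Apolipoprotein E was the most abundant of them. apoeb (ENSDARG00000040295, chr16:23960744-23963461), which carries lipid taken up by phagocytes and glia, was at 249, 656, 525, 574 and 1692 FPKM in uninjured replicates 1 to 5 and at 11988, 11849, 7813, 22617 and 12483 FPKM at 2 wpi. The groups were 739 ± 554 and 13350 ± 5509 FPKM (mean ± SD, n = 5 each), and uninjured replicate 5 was the highest of its group. The log2 fold change was 4.37 ± 0.48 (adjusted p = 0.000559).

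Among the 10 largest decreases, 4 were of short RNAs with very few fragments. MIRLET7G was at 0 in all libraries at 2 wpi and had 13 fragments in the uninjured group, so that it was at least 4.99-fold lower when set against a floor of 3 fragments over the group. Both 5S_rRNA genes and snord118b.1 had at most 4 fragments at 2 wpi. The other decreases were in messenger RNAs with more fragments. SQLE (ENSDARG00000079946, chr16:43401005-43413293) and CYP51A1 (ENSDARG00000042641, chr19:598657-617246), both enzymes of sterol synthesis, fell by 2.91 ± 0.36 and 2.44 ± 0.19. KLF11 (ENSDARG00000030844, a Krüppel-like transcription factor), tuft1a, nefla (neurofilament light chain) and cyp2ad2 (a cytochrome P450) fell by between 2.15 and 2.39.

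**Figure D2:**
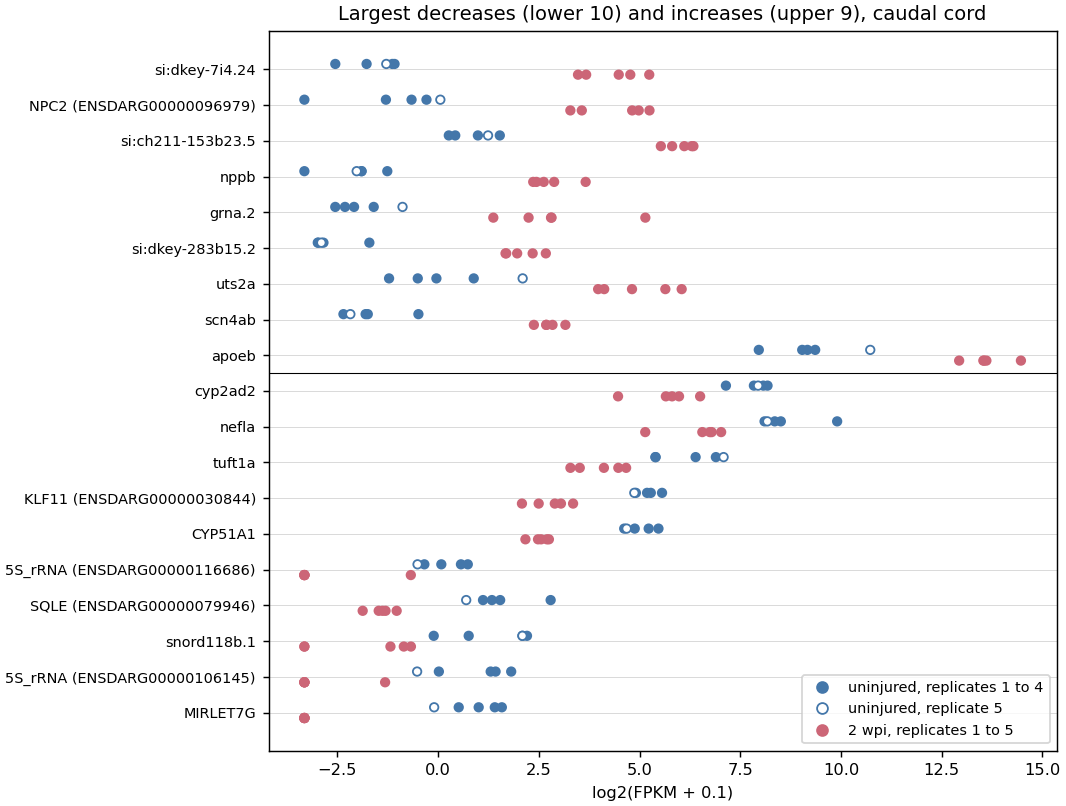
Level of the 10 genes with the largest decrease and 9 of the 10 with the largest increase in each caudal library, as log2(FPKM + 0.1), 1 point per library, uninjured and 2 wpi. For si:dkey-7i4.24 the uninjured libraries lie at or below 0.372 FPKM and the 2 wpi libraries at or above 10.99 FPKM.

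Genes listed for microglia and macrophages, not all of them particular to these cells, were mostly higher at 2 wpi. Of 26 tested members of this list, 17 rose (4.47% of all genes did), and the list had a median log2 fold change of 1.5 against -0.01 over all genes. The receptor csf1ra, which these cells need to develop and survive, was at 3.4, 3.99, 4.55, 5.22 and 3.08 FPKM in uninjured cord and at 11, 10.3, 10.01, 10.8 and 10.3 FPKM at 2 wpi. The injured libraries were close together and all above the uninjured ones (log2 fold change 1.38 ± 0.16, adjusted p = 0.000901). P2RY12, the purinergic receptor of resting microglia, rose by 2.06 ± 0.26, and the integrin itgb2, the scavenger receptor marco and the transcription factor SPI1 rose by 2.12, 2.21 and 2.15. The number of members called was 10 without 2 wpi replicate 4 and 19 without uninjured replicate 5. A shorter list of 10 tested defining markers summed to between 412 and 3009 FPKM in uninjured cord, the highest being uninjured replicate 5, and to between 9074 and 24770 FPKM at 2 wpi, where apoeb, which glia also use, made up 86.1% to 93.1% of the sum. Without apoeb the sums were 163 to 1317 FPKM and 931 to 2153 FPKM, and they overlapped. Most of that remainder was cd74a (means of 519 and 1219 FPKM, adjusted p = 0.0887), which was not called. Of the 10 tested markers 7 were called higher. MPEG1 (ENSDARG00000078569) and SLC7A7 were at 0 in all 10 libraries. The MPEG1 genes ENSDARG00000055290 and ENSDARG00000043093 went from 2.09 to 4.63 FPKM and from 1.001 to 2.05 FPKM. Neither was called (adjusted p = 0.0839 and 0.313). Of 3 tested neutrophil markers 1 was called, CSF3R, which went from 0.488 to 1.69 FPKM (adjusted p = 0.0129). Of 4 tested T and NK cell markers 0 were called.

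Many complement genes and fewer antigen presentation genes rose. Of 12 complement genes tested, 7 rose (median 1.44, with 4.47% of all genes rising). Among them were c1qa, c1qb and c1qc, the chains of the first complement component, at log2 fold changes of 2.35, 1.99 and 2.29. c7a, of the membrane attack complex, was at 3.11, 2.05, 6.15, 2.64 and 4.03 FPKM in uninjured cord and at 28.5, 19.4, 18.2, 18.1 and 19.2 FPKM at 2 wpi, with no overlap (log2 fold change 2.57 ± 0.27, adjusted p = 0.000398). Of 21 antigen presentation genes 5 rose and 11 did so without uninjured replicate 5 (4.47% and 5.88% of all genes did). The 5 were b2m, PSMB10, TAP1, ctss2.1 and ctss2.2, the last of these a cathepsin that trims the chain occupying the MHC class II groove, which went from 4.94 ± 1.68 to 28.9 ± 7.2 FPKM (log2 fold change 2.55 ± 0.27, adjusted p = 0.00042).

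Interferon response genes rose in 11 of 23 cases (median 1.23, with 4.47% of all genes rising). isg15, a ubiquitin-like protein made on interferon signalling, was at 8.72, 25.2, 17.4, 9.13 and 20.9 FPKM in uninjured cord and at 68.1, 108, 137, 139 and 77.5 FPKM at 2 wpi. Even the lowest injured library was more than the highest uninjured one, and the log2 fold change was 2.76 ± 0.33 (adjusted p = 0.00082). The guanylate-binding proteins gbp1 and gbp2 rose by 1.83 and 1.45, and the RNA sensor DHX58 by 1.78. The count was 6 when uninjured replicate 4 or 2 wpi replicate 2, 3 or 4 was left out and 7 when uninjured replicate 1 or 3 was. Of 29 cytokine and chemokine genes 7 rose (median 0.56), beside the same 4.47% of all genes. They were tnfb, lta, il11a, il34, cxcl8a, cxcl8b.1 and cxcl18b. The tumour necrosis factor gene tnfb went from 0.546 ± 0.0938 to 4.15 ± 1.66 FPKM (log2 fold change 2.62 ± 0.30, adjusted p = 0.000707).

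Lysosomal genes, which phagocytes use to digest what they engulf, rose in 15 of 37 cases (median 0.77, with 4.47% of all genes rising). Cathepsins B, C, H, K, L and Z (CTSB, CTSC, CTSH, CTSK, ctsla and CTSZ) were among them, at log2 fold changes between 1.41 and 2.8, with the prosaposin gene PSAP, the granulin gene grna, the cholesterol exporter ABCA1 and the apolipoprotein gene apoc1. CTSK was at 2.28, 2.45, 2.67, 2.45 and 5.74 FPKM in uninjured cord and at 22.7, 21, 18.7, 34.5 and 12.9 FPKM at 2 wpi. Uninjured replicate 5 was again the highest of its group, and no uninjured library reached the injured ones (log2 fold change 2.8 ± 0.30, adjusted p = 0.000462). The lists of immune and lysosomal genes were higher in the same libraries as the summed macrophage and microglia markers. Part of this was built in, since the markers share genes with these lists, among them apoeb, csf1ra and marco. The part of cell number in these changes was not tested.

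**Figure D3:**
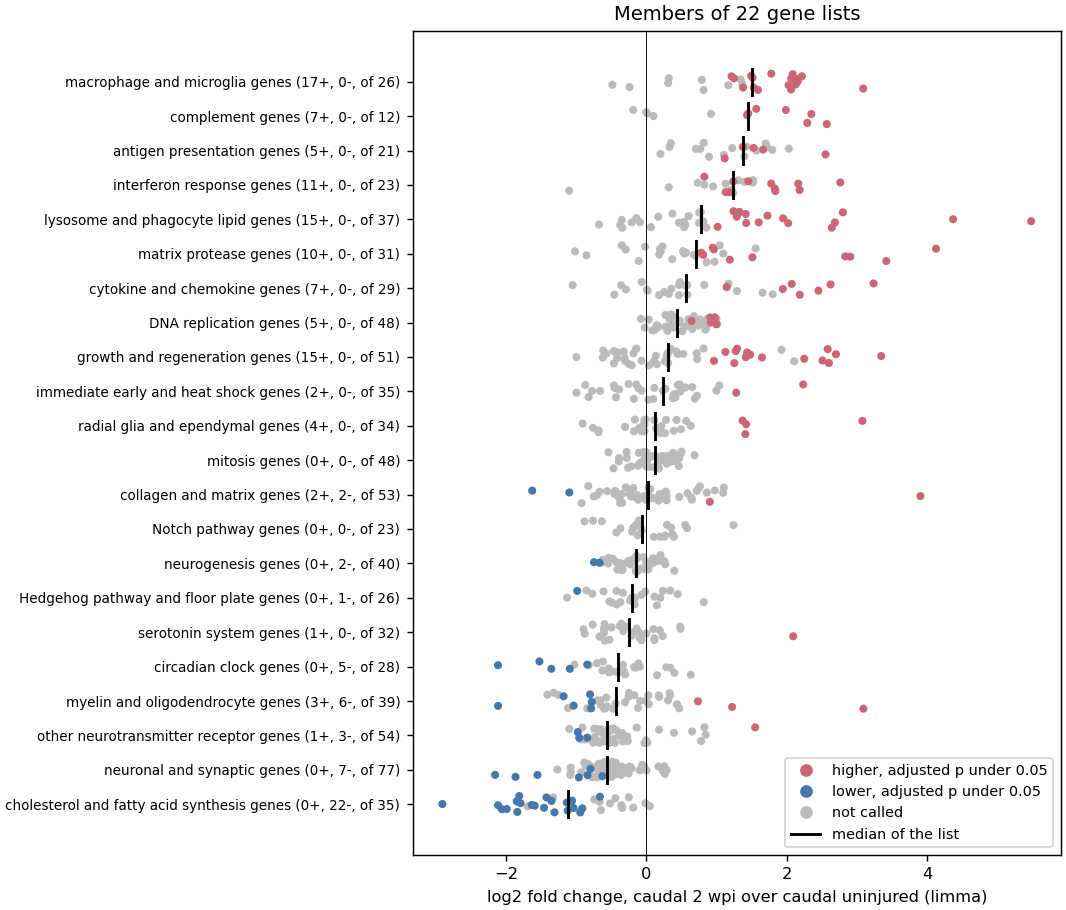
Log2 fold change (caudal 2 wpi over caudal uninjured, limma) of each tested member of 22 gene lists, 1 point per gene, with the called members marked and the median of each list. The medians run from -1.12 for cholesterol and fatty acid synthesis to 1.5 for macrophage and microglia genes.

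Proteases that cut the extracellular matrix rose in 10 of 31 cases (median 0.70, with 4.47% of all genes rising). adam8a (ENSDARG00000001452, chr13:24671481-24679636), a membrane-bound metalloprotease known from leukocytes, was at 0.79, 0.362, 0.545, 0.396 and 0.497 FPKM in uninjured cord and at 9.3, 11.8, 12.1, 9.85 and 9.27 FPKM at 2 wpi. The libraries within each group were close together, and the change was 20.2-fold by the means (log2 fold change 4.13 ± 0.21, adjusted p = 2.17e-06). MMP9, a gelatinase, was at 2.39, 1.79, 2.15, 2.13 and 2.49 FPKM in uninjured cord and at 19, 31.7, 15.4, 17 and 8.74 FPKM at 2 wpi, without overlap (log2 fold change 2.9 ± 0.28, adjusted p = 0.000256). adam8b and the membrane-type protease MMP14 (ENSDARG00000008388) rose by 2.83 and 1.51.

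The matrix proteins themselves did not move in one direction. Of 53 collagen and matrix genes 2 rose and 2 fell (4.47% and 1.89% of all genes did), and the median was 0.02. CTHRC1 (ENSDARG00000087198), a secreted protein of wound fibroblasts in mammals, went from 0.357 ± 0.192 to 6.31 ± 1.28 FPKM (log2 fold change 3.9 ± 0.30, adjusted p = 4.97e-05). The laminin chain lama4 rose by 0.9 ± 0.22, a call that was lost in 7 of the 10 fits without 1 library (adjusted p up to 0.0864). The collagen cross-linking enzyme LOXL2 went from 4.6 ± 0.886 to 1.41 ± 0.227 FPKM (log2 fold change -1.63 ± 0.19, adjusted p = 0.000793), and col7a1, the collagen of anchoring fibrils, fell by 1.1 ± 0.22. Scaled by total fragments, the calls of lama4 and col7a1 were lost and 1 gene rose and 1 fell.

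Radial glia and ependymal genes showed no common shift. Of 34 tested 4 rose (4.47% of all genes did), and the median was 0.13. SLC1A3 (ENSDARG00000043148), a glutamate transporter of glia, was at 2.97, 1.23, 1.69, 2.65 and 1.27 FPKM in uninjured cord and at 24.1, 27.7, 12.6, 10.9 and 12.4 FPKM at 2 wpi (log2 fold change 3.08 ± 0.33, adjusted p = 0.000476). Injured replicates 1 and 2 were the highest, and the groups did not overlap. nes (nestin, an intermediate filament of progenitors) and MDK (ENSDARG00000036036, the growth factor midkine) rose by 1.37 and 1.41. GFAP and SOX2, classical markers of these cells that were looked up after the values were seen, were at 1034 ± 381 and 50.1 FPKM in uninjured cord and at 1535 ± 333 and 60.4 FPKM at 2 wpi (adjusted p = 0.26 and 0.397).

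FOXJ1 (ENSDARG00000101919, chr3:60716904-60733722), the master regulator of motile cilia and a marker of ependymal cells, was at 3.32, 3.89, 3.3, 3.09 and 3.52 FPKM in uninjured cord and at 11.2, 12.2, 7.73, 5.91 and 11 FPKM at 2 wpi. All injured libraries were above all uninjured ones (log2 fold change 1.42 ± 0.21, adjusted p = 0.0027). A list of 96 tested genes of motile cilia (axonemal dyneins, their assembly factors, radial spokes and associated proteins) was therefore drawn up by symbol after the results had been seen, and is given as a description. Of these 96, 30 rose (4.47% of all genes did), 84 had a positive fold change and the median was 0.73. The related gene foxj1b, also among the 96, went from 2.6 to 1.61 FPKM and was not called (log2 fold change -0.69 ± 0.22, adjusted p = 0.094). DAW1, needed to assemble dynein arms, was at 3.84, 4.24, 4.26, 6.14 and 5.53 FPKM in uninjured cord and at 17.5, 16.1, 14.6, 14.1 and 23 FPKM at 2 wpi (log2 fold change 1.81 ± 0.19, adjusted p = 0.000398). ROPN1L, TBATA, TEKT2 (a tektin of the axoneme) and CFAP100 rose by 2.03, 1.83, 1.63 and 1.46. The count was 34 without uninjured replicate 5, 19 without 2 wpi replicate 4 or 5, and 7 with replicates 1 to 3 only.

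Most genes of DNA replication had slightly higher values at 2 wpi, and few of them passed the test. Of 48 replication genes 46 had a positive fold change (median 0.43) and 5 rose (4.47% of all genes did). All 5 act in loading and activation of the replicative helicase: MCM2, MCM3, MCM5, MCM6 (ENSDARG00000057683) and CDC45. MCM6 was at 3.95, 2.27, 2.85, 4.45 and 2.17 FPKM in uninjured cord and at 7, 6.5, 5.9, 6.63 and 4.76 FPKM at 2 wpi. The groups were just apart (log2 fold change 1 ± 0.22, adjusted p = 0.0236). The count was 0 without uninjured replicate 2 or 3 or 2 wpi replicate 2 or 4, 1 without 2 wpi replicate 1, 2 without 2 wpi replicate 3 or 5, 3 without uninjured replicate 4 and 7 without uninjured replicate 1, and it was 0 with replicates 1 to 3 only.

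Of 48 mitosis genes limma called 0, with 1 at an unadjusted p below 0.05 and 0 called by voom, and the median was 0.12. The median was -0.12 without uninjured replicate 5, with 1 gene called lower, and -0.47 with replicates 1 to 3 only. The most abundant of them, STMN1 (ENSDARG00000033655, a microtubule-destabilising protein) and BUB3 (of the spindle checkpoint), were at 1733 ± 1341 and 18 FPKM in uninjured cord and at 1636 ± 826 and 19.4 FPKM at 2 wpi. STMN1 ranged from 666 to 3796 FPKM among the uninjured libraries alone.

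Few signalling and patterning genes of the progenitor zone were called. Of 23 Notch pathway genes limma called 0, with 3 at an unadjusted p below 0.05 and 1 called by voom (median -0.07). The ligand DLD and the Notch modifier LFNG were at 81.2 and 51 FPKM in uninjured cord and at 73.7 and 66.1 FPKM at 2 wpi (adjusted p = 0.62 and 0.32). Of 26 Hedgehog pathway and floor plate genes 1 fell (median -0.21), where 1.89% of all genes did. This was NTN1 (ENSDARG00000022531, the axon guidance cue netrin), which went from 20.6 to 10.4 FPKM (log2 fold change -0.99 ± 0.19, adjusted p = 0.0131). The motor neuron and oligodendrocyte progenitor factor OLIG2 was at 146 and 180 FPKM (adjusted p = 0.47). Scaled by total fragments, the call of NTN1 was lost.

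Genes of axon growth and of the response to axon injury rose in 15 of 51 cases (median 0.31, with 4.47% of all genes rising). ATF3 (ENSDARG00000007823, chr20:37794633-37800737), a transcription factor induced in injured neurons and glia, was at 2.46, 2.13, 1.82, 2.13 and 3.86 FPKM in uninjured cord and at 16.1, 20.3, 16.1, 14.7 and 14 FPKM at 2 wpi. The groups were far apart, with uninjured replicate 5 the highest of the uninjured libraries (log2 fold change 2.7 ± 0.20, adjusted p = 4.49e-05). Some other members of the AP-1 family of transcription factors rose with it, but not all of those on the list were called. A FOS gene had the lowest log2 fold change of the list, -0.999, and was not called. JUNB (ENSDARG00000074378) went from 4.79 ± 1.65 to 48.9 ± 14.7 FPKM (log2 fold change 3.34 ± 0.26, adjusted p = 5.34e-05), the second JUNB gene, FOSL2, FOSL1 and JUN by 2.6, 2.51, 1.65 and 1.12. STAT3 and il6st, which signal for the interleukin-6 family, rose by 0.96 and 1.27, and their feedback inhibitor SOCS3 (ENSDARG00000026611) by 2.25. Of the proteins of the growing axon, gap43 went from 248 to 662 FPKM (log2 fold change 1.43 ± 0.23) and the tubulin gene tubb6 from 4.3 to 25.2 FPKM (log2 fold change 2.58 ± 0.34). Among 35 immediate early and heat shock genes 2 rose, close to the 4.47% of all genes, the phosphatase DUSP5 by 2.23 and the transcription factor EGR3 by 1.28, the latter lost in 6 of 10 fits without 1 library (adjusted p up to 0.0875) and under scaling by total fragments.

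Most neuronal and synaptic genes had lower values at 2 wpi, and few of them passed the test. Of 77 tested, 72 had a negative fold change (median -0.57) and 7 fell (1.89% of all genes did). The count was 22 without uninjured replicate 5 and 3 without any one of uninjured replicates 1 to 4 or 2 wpi replicate 4, 4 without 2 wpi replicate 2, and it was 2 when the libraries were scaled by total fragments. nefla (ENSDARG00000057568, chr21:19008168-19011040), the neurofilament light chain that fills large axons, was at 275, 957, 327, 363 and 288 FPKM in uninjured cord and at 107, 130, 94, 35.15 and 110 FPKM at 2 wpi. Uninjured replicate 2 was the highest and 2 wpi replicate 4 the lowest (log2 fold change -2.16 ± 0.41, adjusted p = 0.011). The groups did not overlap, which was required for naming among the largest decreases. The medium chain nefmb and a second light chain, NEFL, fell by 1.87 and 1.55, NEFL losing its call under scaling by total fragments and in 5 of 10 fits without 1 library (adjusted p up to 0.0629). Others that fell were the NMDA receptor subunit GRIN1 and the GABA receptor subunit GABRB2, by 0.63 and 0.84. The summed level of 17 neuron markers was 2235 to 4160 FPKM in uninjured cord and 1191 to 2165 FPKM at 2 wpi. Most of it came from SNAP25 (ENSDARG00000020609, means of 1743 and 984 FPKM, adjusted p = 0.249), nefma (524 and 201 FPKM, adjusted p = 0.193) and NEFL. Of the 16 markers that were tested 1 was called, NEFL, and their median log2 fold change was -0.56. It was -0.26 for ELAVL3, -0.21 for ELAVL4 and -0.04 for MAP1A.

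Neurogenesis genes held few calls. Of 40 neurogenesis genes 2 fell (median -0.15), where 1.89% of all genes did. They were EBF3, by 0.67, and PAX2 (ENSDARG00000028148, a factor of spinal inhibitory neurons), by 0.75. Neither was called under scaling by total fragments, where the count was 0, and 4 fell without uninjured replicate 5 and 1 without uninjured replicate 4 or 2 wpi replicate 2, 3 or 4. EBF3 also lost its call in 5 of 10 fits without 1 library (adjusted p up to 0.0646).

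Myelin and oligodendrocyte genes were mixed, with 6 of 39 lower and 3 higher (median -0.44), or 5 lower and 3 higher when scaled by total fragments. Over all genes, in the main fit, 1.89% were lower and 4.47% higher. zwi, UGT8 (an enzyme of myelin galactolipids), NFASC (of the nodes of Ranvier) and both GPR37 genes fell by between 0.78 and 1.18. SOX8 (ENSDARG00000037782), a transcription factor of the oligodendrocyte lineage, went from 2.31 ± 0.439 to 5.48 ± 0.81 FPKM (log2 fold change 1.22 ± 0.18, adjusted p = 0.00275), and tppp and cntn1a rose by 3.09 and 0.73. The most abundant myelin transcript, mbpa, was looked up after the values were seen and stood at 26871, 37837, 52785, 90655 and 99395 FPKM in uninjured replicates 1 to 5 and at 18380, 13281, 17534, 37126 and 22865 FPKM at 2 wpi. It varied widely within both groups, which overlapped (log2 fold change -1.41 ± 0.64, adjusted p = 0.228). The summed level of 15 oligodendrocyte and myelin markers, mostly mbpa, was 40921 to 138420 FPKM in uninjured cord and 22688 to 52050 FPKM at 2 wpi.

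Of the 22 gene lists, that of cholesterol and fatty acid synthesis held the most genes that fell. Of 35 tested genes 34 had a negative fold change (median -1.12) and 22 fell (1.89% of all genes did). The count was 24 without uninjured replicate 5, 15 without uninjured replicate 4 or 2 wpi replicate 1 or 3, and 13 when scaled by total fragments. The genes that fell covered the pathway from its early part (HMGCS1) through the mevalonate steps (MVK, PMVK, MVD, FDPS) and squalene (FDFT1, SQLE, LSS) to the late sterol steps (NSDHL, HSD17B7, EBP, SC5D, DHCR7). SQLE, the squalene epoxidase, was at 2.06, 6.82, 2.42, 2.8 and 1.52 FPKM in uninjured cord and at 0.389, 0.259, 0.284, 0.304 and 0.173 FPKM at 2 wpi. The groups did not overlap, which was required for naming among the largest decreases (log2 fold change -2.91 ± 0.36, adjusted p = 0.00104). CYP51A1, the lanosterol demethylase, was named as 1 of the 10 largest decreases and was not on the list. It was at 24.4, 44.2, 29.3, 37.3 and 25.5 FPKM in uninjured cord and at 6.39, 6.62, 4.38, 5.47 and 5.78 FPKM at 2 wpi, a 5.61-fold fall by the means (log2 fold change -2.44 ± 0.19, adjusted p = 5.65e-05).

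Of the fatty acid enzymes, the desaturase SCD fell by 1.99, and the elongases ELOVL5 and ELOVL1 (ENSDARG00000099960) fell by 1.85 and 1.81. This ELOVL1 gene was at 41.7, 52.7, 52.3, 59.7 and 44.7 FPKM in uninjured cord and at 12.5, 12.3, 12.9, 17.8 and 15.7 FPKM at 2 wpi, with tight groups (adjusted p = 0.000144). The more abundant ELOVL1 gene, ENSDARG00000103735, fell less, from 384 to 243 FPKM (log2 fold change -0.66 ± 0.16, adjusted p = 0.0359). FASN, the fatty acid synthase, was at 1.19 FPKM in uninjured cord and 0.68 FPKM at 2 wpi (adjusted p = 0.197), and it fell without uninjured replicate 5 (log2 fold change -0.89 ± 0.20, adjusted p = 0.0208). The transcription factor srebf2, which drives this pathway, and its target ldlra, the receptor for low-density lipoprotein, fell by 1.35 and 1.59. In the same libraries at 2 wpi the median of the summed myelin markers was lower (31944 against 76556 FPKM). That of the macrophage markers was higher (13282 against 983 FPKM, or 1261 against 327 FPKM without apoeb, then mostly cd74a). The part of both marker groups in this fall was not tested.

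Clock genes fell in 5 of 28 cases (median -0.40, with 1.89% of all genes falling), 3 when scaled by total fragments. PER2 (ENSDARG00000034503, chr2:48309600-48375342), a light-induced repressor of the clock in fish, was at 7.62, 10.4, 6.35, 5.43 and 4.59 FPKM in uninjured cord and at 1.28, 0.879, 3.47, 1.17 and 1.33 FPKM at 2 wpi. The highest injured library, 2 wpi replicate 3, stayed below the lowest uninjured one (log2 fold change -2.12 ± 0.33, adjusted p = 0.00435). cry5, also a photolyase-family gene, nfil3-6 and both CRY1 genes fell by between 0.84 and 1.53. The hour at which the fish were sampled is not given in the sources used here, and its part was not tested.

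The study asked which serotonin receptors take part in axon regrowth, and a list of the serotonin system was therefore examined. Of 32 genes tested 24 had a negative fold change, the lowest being -0.90 (median -0.25), and 1 rose, where 4.47% of all genes did. This gene was TPH1 (ENSDARG00000036082), a tryptophan hydroxylase, the enzyme that starts serotonin synthesis. It was at 0.138, 0, 0.146, 0.0243 and 0.0636 FPKM in uninjured cord and at 0.477, 0.749, 0.868, 0.553 and 0.437 FPKM at 2 wpi, low in both groups and without overlap (log2 fold change 2.09 ± 0.35, adjusted p = 0.00614). The neuronal enzyme TPH2 was at 0.943, 0.691, 1.67, 3.33 and 3.88 FPKM in uninjured cord and at 1.86, 0.84, 1.38, 0.922 and 2.52 FPKM at 2 wpi. The groups overlapped (log2 fold change -0.29 ± 0.46, adjusted p = 0.774), and the direction turned to 0.30 with replicates 1 to 3 only.

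The receptor htr1b was at 4.34, 7.05, 4.9, 6.7 and 5.42 FPKM in uninjured cord and at 4.64, 2.32, 3.87, 3.89 and 4.02 FPKM at 2 wpi. The ranges overlapped through 2 wpi replicate 1 (log2 fold change -0.6 ± 0.21, adjusted p = 0.124). HTR2B was at 0.941 ± 0.155 and 0.72 ± 0.176 FPKM (adjusted p = 0.39) and htr7c at 4.05 ± 0.712 and 2.9 ± 0.807 FPKM (adjusted p = 0.21). The transcription factors with the highest levels on the list, LMX1B (ENSDARG00000068365) and ascl1a, were at 11.8 and 10.2 FPKM in uninjured cord and at 7.92 and 9.52 FPKM at 2 wpi (adjusted p = 0.098 and 0.74). The serotonin transporter SLC6A4 was at 2.18 ± 0.652 FPKM in uninjured cord and at 1.25 ± 0.433 FPKM at 2 wpi (adjusted p = 0.12). FEV, a transcription factor of serotonergic neurons, was at 3.13 ± 0.927 and 3.63 ± 1.28 FPKM (adjusted p = 0.76).

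Of 54 receptor genes of other transmitters, 46 had a negative fold change (median -0.56), 3 fell and 1 rose. Over all genes 1.89% fell and 4.47% rose. OPRM1 (the mu opioid receptor), CHRNA4 (a nicotinic receptor subunit) and GRM8 (ENSDARG00000076508, a metabotropic glutamate receptor) fell by 0.84, 0.98 and 0.96. CNR1, the cannabinoid receptor of axon terminals, was at 1.2, 1.6, 1.42, 1.5 and 0.304 FPKM in uninjured cord and at 2.63, 3.94, 4.89, 2.94 and 2.66 FPKM at 2 wpi. Its uninjured replicate 5 was far below the rest (log2 fold change 1.55 ± 0.38, adjusted p = 0.0334). Each of the 4 calls was lost in at least 1 fit without 1 library (highest adjusted p 0.0531 for OPRM1, 0.0766 for CNR1, 0.0862 for CHRNA4 and 0.0989 for GRM8). The list had 0 falls without 2 wpi replicate 2, 1 without uninjured replicate 1, 2, 3 or 4 or 2 wpi replicate 1, 4 or 5, and 6 without uninjured replicate 5. Under scaling by total fragments 3 of its genes rose and the calls of OPRM1, CHRNA4 and GRM8 were lost.

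The levels of 6 of these genes were followed over all groups of the series, as a description. adam8a was highest in caudal cord at 1 wpi (21.5 ± 7.76 FPKM) and stood at 10.5 ± 1.38, 7.55 ± 3.39 and 5.11 ± 1.92 FPKM by 2, 4 and 6 wpi, against 0.518 ± 0.169 in uninjured cord. apoeb stood at 14812 ± 6545, 13350 ± 5509, 6482 ± 2219 and 5074 ± 3799 FPKM over the same weeks. In both genes the neighbouring weeks overlapped except for adam8a between 1 and 2 wpi, and all weeks were above uninjured cord. CYP51A1 stood at 4.31 ± 1.16, 5.73 ± 0.88, 6.78 ± 2.04 and 8.38 ± 1.3 FPKM at 1, 2, 4 and 6 wpi, all below 32.1 ± 8.4 FPKM in uninjured cord. nefla stood at 76.6 ± 47.6, 95.3 ± 36, 161 ± 35.3 and 157 ± 40.6 FPKM, against 442 ± 290 FPKM. FOXJ1 lay between 9.62 and 12.4 FPKM at all weeks, against 3.42 ± 0.302 FPKM, with overlapping neighbours. PER2 was at 1.35 ± 0.548, 1.63 ± 1.05, 3.43 ± 1.8 and 1.94 ± 0.404 FPKM, against 6.88 ± 2.27 FPKM, and only at 4 wpi did its range reach that of uninjured cord.

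**Figure D4:**
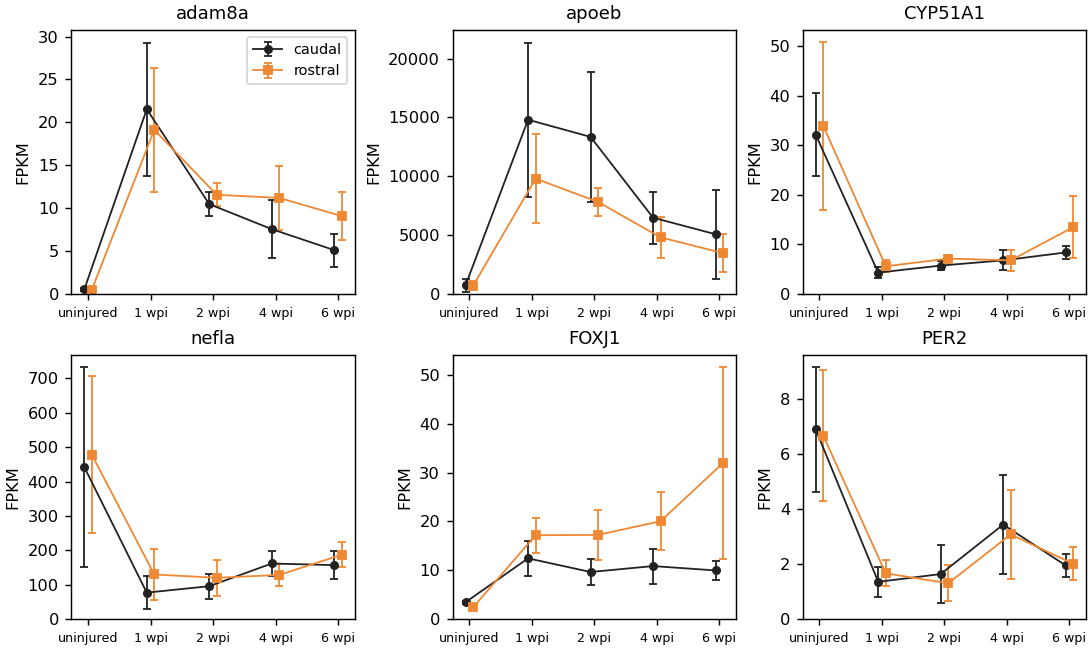
FPKM of 6 genes in uninjured cord and at 1, 2, 4 and 6 wpi, caudal and rostral (points are means and bars SD of 5 libraries, 4 for caudal cord at 6 wpi). In caudal cord at 2 wpi adam8a and apoeb are above and CYP51A1, nefla and PER2 below the uninjured mean, and FOXJ1 is at 9.62 FPKM caudally and 17.2 FPKM rostrally.

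The next comparison set caudal cord at 2 wpi against caudal cord at 1 wpi. limma called 0 of 27880 genes tested (0%), with 2232 at an unadjusted p below 0.05. voom called 1, and limma with all groups in 1 fit called 81 (37 higher and 44 lower). With the replicate number as a block limma called 0, with 4131 at an unadjusted p below 0.05. The largest shifts in named genes did not pass in the fit without a block, which gave the values that follow. si:dkey-7i4.24 was at 3.73 FPKM at 1 wpi and 22.1 FPKM at 2 wpi (log2 fold change 2.51 ± 0.39, adjusted p = 0.11), and tubb6 at 118 and 25.2 FPKM (-2.24 ± 0.27, adjusted p = 0.069). Between the weeks adam8a, at 21.5 and 10.5 FPKM, had an adjusted p of 0.27. The list medians ran from -0.57 for mitosis genes to 0.46 for clock genes.

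The change at 2 wpi was then compared between caudal and rostral cord with an interaction term. Without a block, limma called 0 of 28363 genes (0%), with 647 at an unadjusted p below 0.05, and voom called 3. Same-numbered caudal and rostral libraries deviated together within each time point, and with these pairs as a block 5 genes (0.0176%) had a more positive change in caudal cord and 97 (0.342%) a more negative one. Without uninjured replicate 5 of caudal cord the blocked counts were 1, PRDM14, and 62. The genes with the more positive caudal change included FOXD3 (a neural crest and interneuron factor), cyp39a1, PRDM14 and PROX1. FOXD3 went from 11.11 to 37.4 FPKM in caudal cord and from 11.9 to 24.1 FPKM in rostral cord, a difference of 0.74 ± 0.12 on the log2 scale (adjusted p = 0.021 with the block, 0.052 when caudal uninjured replicate 5 was also left out).

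Of the 97 genes with a more negative caudal change, 32 were also called higher in caudal cord at 2 wpi, 4 lower and 61 neither. Over all genes 4.47% were called higher and 1.89% lower. ANXA2, a membrane-binding annexin that was looked up after its values were seen, was at 15.6, 15.7, 18.3, 17.5 and 31.4 FPKM in uninjured caudal cord and at 234, 371, 315, 471 and 532 FPKM at 2 wpi. It rose in caudal cord (log2 fold change 4.27 ± 0.26, adjusted p = 7.22e-06), and it stood higher still in rostral cord at 2 wpi, at 1167 ± 611 FPKM (difference -1.71 ± 0.21, adjusted p = 0.0054 with the block). PYY, the neuropeptide Y-related peptide, went from 35.6 to 85.3 FPKM caudally and from 11.7 to 198 FPKM rostrally (difference -2.74 ± 0.25, adjusted p = 0.0011). CRHBP, which binds corticotropin-releasing hormone, went from 34.4 to 62.2 FPKM caudally and from 46.6 to 255 FPKM rostrally (difference -1.58 ± 0.16, adjusted p = 0.0022). The axon growth gene STMN4 (ENSDARG00000043932) and tubb6 also rose less caudally, by -0.87 ± 0.12 and -1.20 ± 0.22. Without caudal uninjured replicate 5 the call of tubb6 was lost (adjusted p = 0.11) and that of STMN4 was not (adjusted p = 0.034).

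The genes of motile cilia lay mostly on the rostral side. Of the 96, 89 had a more negative change in caudal than in rostral cord (median difference -0.58, against 0.01 over all genes), and 17 were among the 97 called with the block, 11 without uninjured replicate 5. DAW1 went from 4.8 to 17.1 FPKM caudally and from 4.04 to 27.4 FPKM rostrally (difference -0.96 ± 0.12, adjusted p = 0.0071). FOXJ1 went from 3.42 to 9.62 FPKM caudally and from 2.37 to 17.2 FPKM rostrally (difference -1.37 ± 0.27, adjusted p = 0.063 with the block), which did not pass. For the macrophage and microglia list the median difference between regions was -0.03.

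**Figure D5:**
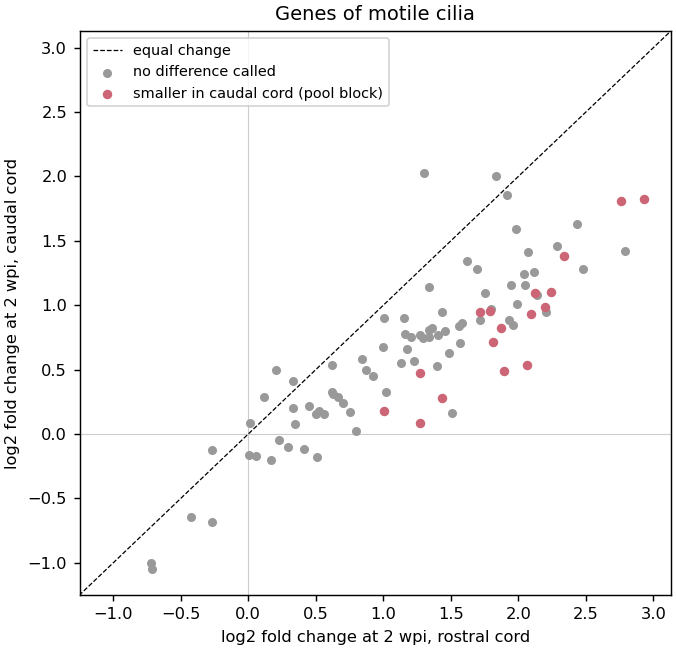
Log2 fold change at 2 wpi of 96 genes of motile cilia in rostral cord (x axis) and caudal cord (y axis), with the line of equal change. The 89 genes with the more negative caudal change lie below the line, and 17 of them, marked, were called with the pairs of libraries as a block.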

How the data were processed

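RNA-seq of spinal cord tissue was used, with groups and replicate numbers taken from the sample labels. The authors deposited FPKM values for 40085 genes with gene lengths and positions. Per the submitters' processing notes, reads were aligned with HISAT2 2.0.5 to danRer11 and counted with featureCounts 1.5.0-p3. The authors' count table was not used here, and fragments recovered from FPKM entered only an alternative test and the library totals. All columns of the table belong to a labelled sample, and it holds no comparisons of the authors. Of 31901 Ensembl identifiers, 29178 had a symbol in the gene name table and 6136 shared one, so those are given with their identifier where first named, except where both copies are described together. Reads of near-identical copies may have been split between them.

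FPKM multiplied by gene length gave whole fragments in 100% of the values of each library (tolerance 0.05 fragments). Groups were compared on log2(FPKM + 0.1) for genes with a mean of at least 0.1 FPKM, in R 4.3.3 with limma 3.58.1 (linear models, moderated variance with a trend, two-sided tests, p-values adjusted over all genes tested by Benjamini-Hochberg, threshold 0.05). Errors of fold changes are standard errors. The fits were tested on simulated data. The members of the gene lists and the comparison itself were chosen with earlier results of these data known, so that the list counts are descriptions. Genes named were the 10 with the largest increase and the 10 with the largest decrease among called genes whose groups do not overlap and whose higher group has a mean of at least 1 FPKM, up to 4 called members of each list by p-value (the 2 of highest level where fewer than 2 were called), and the serotonin genes the study followed. Other genes were chosen after their values were seen, and not all of them are marked so where they appear. Unmarked ones include FASN, SLC6A4, FEV, DAW1, PYY, CRHBP, FOXD3 and SPI1. Some genes that the rule named are not reported here.

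Alternatives were a pseudocount of 1 or 0.01, a mean of at least 1 FPKM or no filter, quantile normalization, all groups in 1 fit, eBayes with no trend, voom on the recovered fragments, the replicate block, replicates 1 to 3 or 4 and 5 only, and each library left out. Scaling by total fragments, and the block in the comparison by region without caudal uninjured replicate 5, were added after the data had been seen. For the comparison by region, same-numbered rostral and caudal libraries were treated as paired because their deviations correlated in every pair (0.219 to 0.488 at 2 wpi and 0.293 to 0.607 in uninjured cord). For 2 wpi against 1 wpi the same-numbered libraries correlated at 0.168 to 0.325, also in every pair. The main fit of that comparison was still run without the block, and the block was an alternative. The fragments per library limit the precision of low genes, and they cover counting error only, since copies made by PCR are not independent molecules.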

Additional observations from a re-analysis of the deposited data

Results flagged for a closer look

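Each named gene was searched for a single library far from the other 4 of its group (Dixon's ratio above 0.71). Of 202 groups of 5 libraries 15 held one, and chance gives about 1 in 20, or 10.1. In uninjured cord these were si:dkey-283b15.2 in replicate 1 (0.206 FPKM, others 0.0259 to 0.0388), nefla in replicate 2 (957 FPKM, others 275 to 363), gbp1 in replicate 2 (1.94 FPKM, others 2.81 to 2.96), CTSC in replicate 1 (4.75 FPKM, others 7.27 to 8.34), OPRM1 in replicate 1 (10.05 FPKM, others 7.33 to 7.92), and CTSK and CNR1 in replicate 5 (5.74 FPKM, others 2.28 to 2.67, and 0.304 FPKM, others 1.197 to 1.599).

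At 2 wpi, replicate 4 was low in 3 neurofilament genes, with nefla at 35.15 FPKM (others 94.0 to 130), nefmb at 99.6 FPKM (others 237 to 267) and NEFL at 48.8 FPKM (others 116 to 121). The same library held 31.1% mitochondrial fragments and the 452 FPKM of skin epithelium genes, and the part of either was not tested. The other single libraries were c7a in replicate 1 (28.5 FPKM, others 18.1 to 19.4), il11a in replicate 3 (0.476 FPKM, others 1.12 to 1.46), htr1b in replicate 2 (2.32 FPKM, others 3.87 to 4.64), and the 5S_rRNA genes ENSDARG00000106145 in replicate 3 (0.301 FPKM) and ENSDARG00000116686 in replicate 2 (0.524 FPKM), each at 0 in the others.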

How the results depend on the processing

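Caudal 2 wpi against uninjured cord gave 1806 calls, 665 with replicates 1 to 3 only, 1 with replicates 4 and 5 only, 3199 with all groups in 1 fit and 919 to 2580 when 1 library was left out. With the replicate block it gave 1616, and the other settings gave between 1363 and 2233. Same-numbered libraries of these groups correlated at 0.0182 to 0.270 (mean 0.124, against -0.0307 for other numbers), and 2 of 5 correlated best with their own number. The main fit of this comparison was run without the block, and the block was an alternative. Of 86 named genes called, 74 were called in all 10 fits without 1 library, 85 without uninjured replicate 5, 73 under scaling by total fragments and 55 with replicates 1 to 3 only, and 0 turned direction. Named genes that turned were not called: DLD (0.0859) and ascl1a (0.0904) under scaling by total fragments, STMN1 (-0.30) and ascl1a (0.21) with replicates 4 and 5, TPH2 (0.30) with replicates 1 to 3, and STMN1 (-0.17 to 0.46) and BUB3 (-0.0213 to 0.24) without 1 library. Caudal 2 wpi against 1 wpi gave 0 calls, 3 with a pseudocount of 1, 4 with a mean of at least 1 FPKM, 81 with all groups in 1 fit, 1 with voom and 0 to 1 without 1 library. The difference between regions gave 0 calls, 8 with a pseudocount of 1, 3 with a mean of at least 1 FPKM, 1 with all groups in 1 fit, 3 with voom, 102 with the replicate block, 63 with the block and without caudal uninjured replicate 5, and 0 to 4 without 1 library. The cause of these shifts was not tested. The small groups limit what the subsets of replicates can call, and genes of few fragments are limited by depth.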

Other observations

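Some families of genes with the same start of symbol held many calls. They were found after the values had been seen and are given as values only, beside the 4.47% of all genes that rose and the 1.89% that fell. Of 14 galectin genes and their relatives (symbols starting with LGA) 8 rose (median 1.27), of 16 genes with symbols starting with IRF, mostly interferon regulatory factors, 7 rose (median 1.04), of 15 annexins 5 rose (median 0.79) and of 29 genes with symbols starting with IFI 9 rose (median 1.12). Some of these stood on the lists of the report. Of those on no list, 7 of 13 LGA, 3 of 10 IRF and 8 of 27 IFI genes rose. Among genes with symbols starting with RPS or RPL, which include those of cytosolic ribosomal proteins, 7 of 47 and 5 of 44 rose. Their medians were 0.61 and 0.63.

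Of 7 genes of SLITRK proteins, membrane proteins of synapses, 4 fell (SLITRK2, SLITRK3, SLITRK5 (ENSDARG00000103359) and slitrk3b, with log2 fold changes from -1.09 to -0.67). The adjusted p of the 4 lay between 0.0162 and 0.0462. The elongase ELOVL7 fell by 1.57, and of 51 genes with symbols starting with CYP 6 rose and 2 fell. These falls are not given under scaling by total fragments, where 92 of all 537 lower genes kept their call.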
